A study of Mus musculus with 6 samples.

Results

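Bone mineral grows where phosphate is freed next to collagen and the inhibitor pyrophosphate is removed, and the genes described here encode the enzymes, transporters and regulators of that step. The list held 10 genes, namely Alpl, Phospho1, Smpd3, Enpp1, Ank, Phex, Fgf23, Slc20a1, Slc20a2 and Fam20c, out of 18193 genes with a named probe set on the array. Members were found by gene symbol in the annotation of the mouse array, which named 17 probe sets for them. Of these, 16 belonged to 1 gene alone and covered 8 members. The single probe set of Phospho1 was annotated to Zfp652 as well and stands for no gene, and no probe set was named for Enpp1, which was not analysed here.

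RNA came from 3 skeletal sites of skeletally mature male mice of 24 to 26 grams, of a strain that the methods call Black CD57, with 2 Affymetrix Mouse Genome arrays for each site. The mandible samples included the teeth, the calvaria samples had their sutures removed, and the ulna samples had been stripped of epiphyses and soft tissue. All bones were normal and untreated, and each sample was ground whole, so marrow and vessels entered the RNA with the bone cells. The methods describe 10 such mice divided into 2 groups, while the number of animals behind an array is not given in the sources used here. The p-values rest on the scatter between arrays of a site, pooled over the 3 sites and drawn towards that of all tested probe sets. Part or all of that scatter may be technical.

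The deposited value is the MAS5 signal, a fluorescence intensity on a linear scale with no unit, which the authors had scaled to a like trimmed mean on every array. For the tests, values were taken relative to the median of their array, which lay between 30.6 and 33.6, and a probe set was tested if its signal exceeded that median on at least 2 of the 6 arrays. This left 12 probe sets of 7 members, beside 12326 genes tested in all. A gene was called where limma gave an adjusted p under 0.05 and the change was at least 2-fold. Log2 differences are of the scaled values, and means with their SD are of the deposited signal. The smallest two-sided p of an exact permutation test of 2 against 2 arrays is 0.333, so no such test was used.

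The roles of these genes are well known. Alpl encodes tissue-nonspecific alkaline phosphatase, which splits pyrophosphate on the osteoblast surface. Phospho1 and Smpd3 act in phospholipid breakdown in matrix vesicles, the small particles in which the first crystals form. Enpp1 makes pyrophosphate outside the cell and Ank exports it, so both hold mineral back, while Slc20a1 and Slc20a2 carry phosphate into cells together with sodium. Phex is an endopeptidase of osteoblasts, osteocytes and odontoblasts whose loss raises Fgf23, the hormone of osteocytes that makes the kidney excrete phosphate, and Fam20c phosphorylates secreted matrix proteins and Fgf23 itself.

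Most of the members that could be tested differed between the skull sites and the ulna. Between calvaria and ulna 4 of 7 members were called higher in calvaria (Alpl, Phex, Smpd3 and Fam20c), against 8.44% of all genes tested, and Slc20a1 was called lower, against 4.59%. Between mandible and ulna 5 of 7 were called higher in mandible (the same 4 and Slc20a2), against 11.0% of all genes, and Slc20a1 was again called lower, against 11.0%. Between mandible and calvaria 3 of 7 were called higher in mandible (Alpl, Phex and Slc20a2), against 5.15%, and none was lower, against 4.02%. The median log2 difference over the tested members was 1.36 between calvaria and ulna (all genes -0.05), 2.28 between mandible and ulna (all genes -0.08) and -0.01 between mandible and calvaria (all genes -0.09). Smpd3 passed the signal filter only through the mandible and calvaria arrays, where it was high, so a difference from ulna was built into its selection. At the level of probe sets, 8 of 12 were called in either direction between calvaria and ulna (11.9% of all probe sets tested), 11 of 12 between mandible and ulna (20.7%) and 4 of 12 between mandible and calvaria (7.57%). Both counts against ulna include the tested probe sets of Smpd3. The 11 also include a dim probe set of Phex that passed the filter only through mandible. Those calls were built into the selection, and probe sets of 1 gene are not independent. The comparisons with ulna share the ulna arrays. In RNA from a whole bone, a smaller number of cells of a type and less RNA per cell cannot be told apart.

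**Figure D1:**
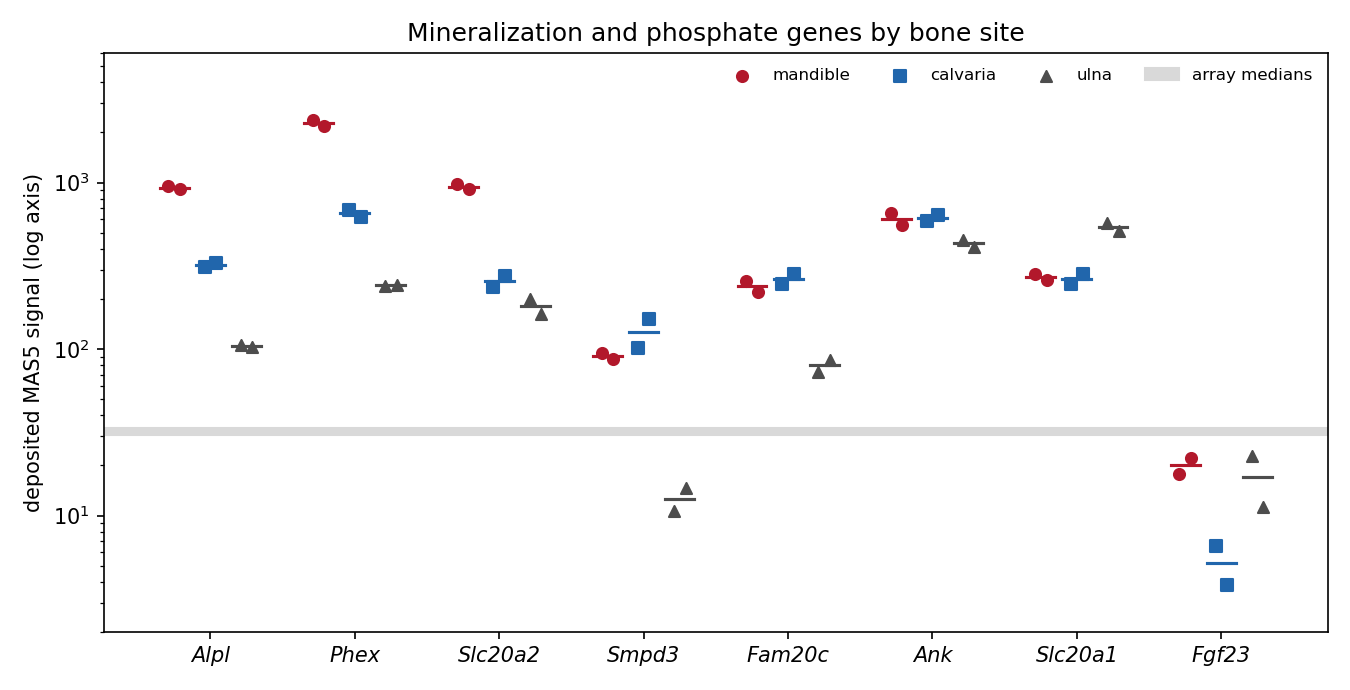
MAS5 signal as deposited, on a logarithmic axis, of the 8 members with a probe set of their own, where each point is 1 array (mandible circles, calvaria squares, ulna triangles, 2 arrays a site), with a short bar at their mean and a grey band over the range of the array medians. Alpl and Phex step down over the 3 sites, Slc20a1 is highest in ulna, and Fgf23 lies under the band; levels of different genes are not comparable, since each is read by its own probes.

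Alkaline phosphatase differed at every step between the sites. The signal of Alpl (probe set 1423611_at) was 955 and 912 in mandible, 310.4 and 327 in calvaria and 106 and 102 in ulna. The arrays of the 3 sites did not overlap, with mandible highest at 934 ± 30.9, then calvaria at 319 ± 11.5 and ulna at 104 ± 2.42 (SD, n = 2 arrays each). Alpl was 2.91-fold higher in calvaria than in ulna (log2 difference 1.54, SE 0.10, limma adjusted p = 1.05e-06) and 8.28-fold higher in mandible than in ulna (3.05, adjusted p = 7.05e-09). The direct comparison of mandible with calvaria gave 2.85-fold (1.51, adjusted p = 2.82e-06).

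Phex, the endopeptidase, had nearly the same pattern. Its signal (probe set 1421979_at) was 2376 and 2179 in mandible, 683 and 622 in calvaria and 241 and 242 in ulna. The sites again did not overlap, with means of 2277 ± 139 in mandible, 653 ± 43.3 in calvaria and 241 ± 1.01 in ulna (SD, n = 2 each). It was 2.56-fold higher in calvaria than in ulna (log2 difference 1.36, SE 0.09, limma adjusted p = 7.09e-07), 8.69-fold higher in mandible than in ulna (3.12, adjusted p = 1.65e-09) and 3.39-fold higher in mandible than in calvaria (1.76, adjusted p = 1.73e-07). A second probe set of Phex was dim, with a signal of 47.9 and 40.6 in mandible, 5.10 and 16.9 in calvaria and 3.70 and 1.54 in ulna. It passed the filter only through the mandible arrays and was called between mandible and ulna alone (log2 difference 4.09, adjusted p = 0.0204), a call built into its selection. Its difference between mandible and calvaria had the same sign but did not pass (2.21, adjusted p = 0.242), nor did that between calvaria and ulna (1.89, adjusted p = 0.287).

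Of all genes tested, Phex was the one whose profile over the 6 arrays lay closest to that of Alpl, and Alpl the closest to Phex. The measure was the root mean square distance between log2 values, each gene centred on its own mean, and it came to 0.12 for this pair. Only 21 genes lay within 0.25 of Alpl and 16 within 0.25 of Phex. The next genes to Alpl were Postn, which encodes the matrix protein periostin (0.13), and Vcan, which encodes the proteoglycan versican (0.14), and the next to Phex were Carmil1 (0.14) and Vcan (0.15).

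The sequences around the start sites of this pair were unlike in base composition, and they are shown here because Alpl and Phex had the most similar profile of any pair of tested members. Each window runs from 250 bases before to 50 bases after a RefSeq transcript start on GRCm38.p6, written 5′ to 3′ on the gene's strand. Alpl lies on the minus strand and its upstream start has the window chr4:137796335-137796634. Phex lies on the minus strand of the X chromosome, with the window chrX:157415237-157415536. Slc20a1, the member that was lower in both skull sites, is set beside them, on the plus strand with the window chr2:129198523-129198822 at its upstream start. Capitals mark the GC box GGGCGG, the TATA box TATAAA and the RUNX core TGTGGT on either strand, where GC boxes may overlap each other.
Alpl: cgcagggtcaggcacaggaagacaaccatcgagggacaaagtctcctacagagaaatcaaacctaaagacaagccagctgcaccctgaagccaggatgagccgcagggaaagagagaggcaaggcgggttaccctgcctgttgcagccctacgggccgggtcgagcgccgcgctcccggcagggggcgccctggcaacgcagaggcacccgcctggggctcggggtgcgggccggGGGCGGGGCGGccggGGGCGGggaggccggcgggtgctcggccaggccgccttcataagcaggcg
Phex: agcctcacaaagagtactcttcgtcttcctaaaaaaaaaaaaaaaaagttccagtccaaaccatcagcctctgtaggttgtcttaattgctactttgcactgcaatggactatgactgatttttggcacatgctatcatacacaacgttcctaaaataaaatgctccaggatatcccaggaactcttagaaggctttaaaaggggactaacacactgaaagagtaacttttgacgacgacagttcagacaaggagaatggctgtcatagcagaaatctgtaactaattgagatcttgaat
Slc20a1: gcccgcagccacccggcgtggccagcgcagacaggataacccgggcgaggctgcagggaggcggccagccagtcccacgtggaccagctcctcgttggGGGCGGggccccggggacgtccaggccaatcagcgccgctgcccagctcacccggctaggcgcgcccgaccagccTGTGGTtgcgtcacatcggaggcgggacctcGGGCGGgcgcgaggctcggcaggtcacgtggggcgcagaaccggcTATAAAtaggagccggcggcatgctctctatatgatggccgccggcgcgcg
The Alpl window was 70.0% G and C and held 3 GC boxes, while that of Phex was 38.7% G and C and held none of the 3 motifs. Slc20a1 held 2 GC boxes, 1 TATA box and 1 RUNX core in a window of 73.0% G and C. Over all 32851 windows of this kind in the mouse, the median was 52.7% G and C, and 8.4% of the windows had a lower share than Phex and 90.4% a lower share than Alpl. A GC box was present in 35.7% of all windows, a TATA box in 13.6% and a RUNX core in 16.8%. These matches describe the letters of the windows and say nothing of binding. The table held windows for 8 of the 10 members, and Smpd3 and Slc20a2 were the members without one. A second, downstream start of Alpl had a window of 54.3% G and C with 1 TATA box, and the probe set of Alpl was not assigned to either start.

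Slc20a2 and Slc20a1, the sodium-dependent phosphate transporters, went opposite ways. The signal of Slc20a2 (probe set 1434235_at) was 978 and 913 in mandible, 234 and 276 in calvaria and 201 and 161 in ulna, so the mandible arrays (946 ± 45.9) stood apart from those of calvaria (255 ± 29.6) and ulna (181 ± 27.7). It was 4.84-fold higher in mandible than in ulna (log2 difference 2.28, SE 0.13, limma adjusted p = 2.24e-07) and 3.61-fold higher in mandible than in calvaria (1.85, adjusted p = 3.29e-06). Calvaria exceeded ulna on both arrays by 1.34-fold, past the adjusted p but under 2-fold (0.42, adjusted p = 0.0290). At a second probe set, with 109 and 163 in mandible, 37.0 and 71.2 in calvaria and 37.4 and 54.7 in ulna, the comparisons of mandible with ulna (1.44, adjusted p = 0.00616) and with calvaria (1.34, adjusted p = 0.0182) were also called. There the calvaria and ulna arrays overlapped (0.11, adjusted p = 0.853).

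Slc20a1 was the 1 member lower in both skull sites. Its signal (probe set 1448568_a_at) was 282 and 258 in mandible, 247 and 283 in calvaria and 573 and 512 in ulna. The ulna arrays lay above all 4 skull arrays, and the mandible and calvaria arrays overlapped. The means were 270.2 ± 16.8 in mandible, 265 ± 25.8 in calvaria and 542 ± 43.2 in ulna (SD, n = 2 each). The log2 difference was -1.11 between calvaria and ulna (SE 0.11, limma adjusted p = 3.20e-05) and -1.12 between mandible and ulna (adjusted p = 1.73e-05), a ratio of 0.463 and 0.460. The difference of mandible from ulna sits near the 2-fold limit, and with quantile normalization it was under it (-0.98, adjusted p = 6.67e-05). Between mandible and calvaria the ratio was 0.993, with a 95% interval of 0.834 to 1.18. A second probe set, with 39.1 and 30.2 in mandible, 59.3 and 47.4 in calvaria and 147 and 158 in ulna, was lower by more, with log2 differences of -1.60 for calvaria minus ulna (adjusted p = 0.000561) and -2.27 for mandible minus ulna (adjusted p = 2.60e-05). Another probe set lay below the array median on every array and was not tested, with 13.1 and 5.25 in mandible, 7.67 and 10.2 in calvaria and 13.3 and 21.4 in ulna.

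**Figure D2:**
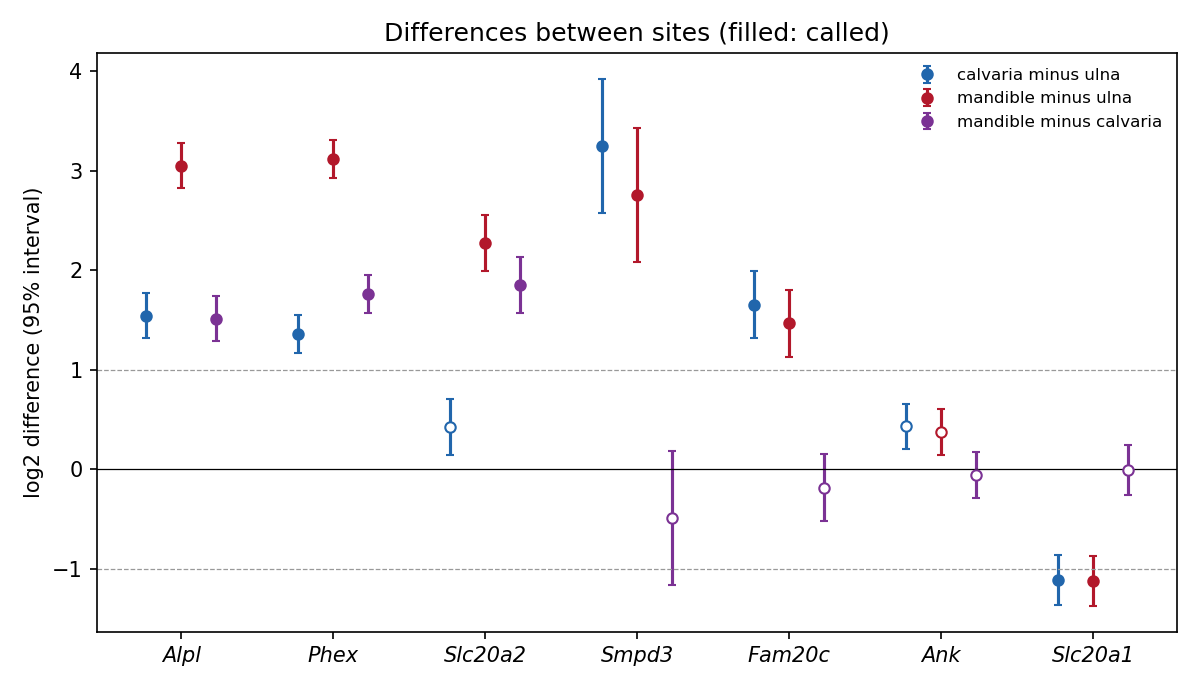
Log2 difference with its 95% interval for the 7 tested members in each comparison (n = 2 arrays a site), with filled points for called differences and dashed lines at a 2-fold change. Slc20a2 is called only where mandible is compared, Smpd3 and Fam20c only where ulna is compared, and Slc20a1 lies at -1.11 for calvaria minus ulna and -1.12 for mandible minus ulna.

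Smpd3 encodes neutral sphingomyelinase, which cleaves sphingomyelin to ceramide and phosphocholine and is also abundant in brain. Its signal (probe set 1438665_at) was 94.8 and 87.1 in mandible, 102 and 152 in calvaria and 10.6 and 14.6 in ulna. The means were 91.0 ± 5.45 in mandible, 127 ± 35.7 in calvaria and 12.6 ± 2.79 in ulna (SD, n = 2 each). The ulna arrays lay below their array medians, so the size of the difference is not exact there. Smpd3 was 9.50-fold higher in calvaria than in ulna (log2 difference 3.25, SE 0.30, limma adjusted p = 1.61e-05) and 6.75-fold higher in mandible than in ulna (2.75, adjusted p = 3.21e-05). Both mandible arrays lay below both calvaria arrays, but the difference did not pass (-0.49, adjusted p = 0.288), and the 95% interval of the ratio was 0.446 to 1.13. At a second probe set, with 59.5 and 40.3 in mandible, 64.8 and 59.5 in calvaria and 21.6 and 19.1 in ulna, the ratio to ulna was smaller, 2.90 for calvaria (adjusted p = 0.00588) and 2.22 for mandible (adjusted p = 0.0178). Another lay below the array median on every array, between 0.905 and 29.9, and was not tested.

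Fam20c encodes the kinase of the secretory pathway that phosphorylates bone and enamel matrix proteins. Its signal (probe set 1417688_at) was 256 and 221 in mandible, 247 and 280.4 in calvaria and 73.3 and 86.0 in ulna. All 4 skull arrays (means 238 in mandible and 263 in calvaria) lay above the ulna arrays (mean 79.7), and the mandible and calvaria arrays overlapped. Fam20c was 3.14-fold higher in calvaria than in ulna (log2 difference 1.65, SE 0.15, limma adjusted p = 1.40e-05) and 2.76-fold higher in mandible than in ulna (1.46, adjusted p = 2.02e-05). The ratio of mandible to calvaria was 0.879, with a 95% interval of 0.697 to 1.11 (adjusted p = 0.429). A second probe set, with 126 and 128 in mandible, 179 and 128 in calvaria and 57.9 and 44.3 in ulna, was called in both comparisons with ulna, at 2.83-fold for calvaria and 2.31-fold for mandible. Another was not tested, since it lay below the array median on every array, between 2.93 and 33.2.

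Ank, the pyrophosphate exporter, stayed within 2-fold in all 3 comparisons. Its signal (probe set 1450627_at) was 660.1 and 556 in mandible, 589 and 637 in calvaria and 454 and 411 in ulna. Every skull array exceeded the ulna arrays, with means of 608 ± 73.6 in mandible, 613 ± 33.7 in calvaria and 432 ± 30.7 in ulna (SD, n = 2 each). The ratio was 1.35 for calvaria to ulna (95% interval 1.15 to 1.58, limma adjusted p = 0.00998) and 1.29 for mandible to ulna (1.10 to 1.52, adjusted p = 0.0140). Mandible and calvaria overlapped, with a ratio of 0.961 and a 95% interval of 0.820 to 1.13.

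**Figure D3:**
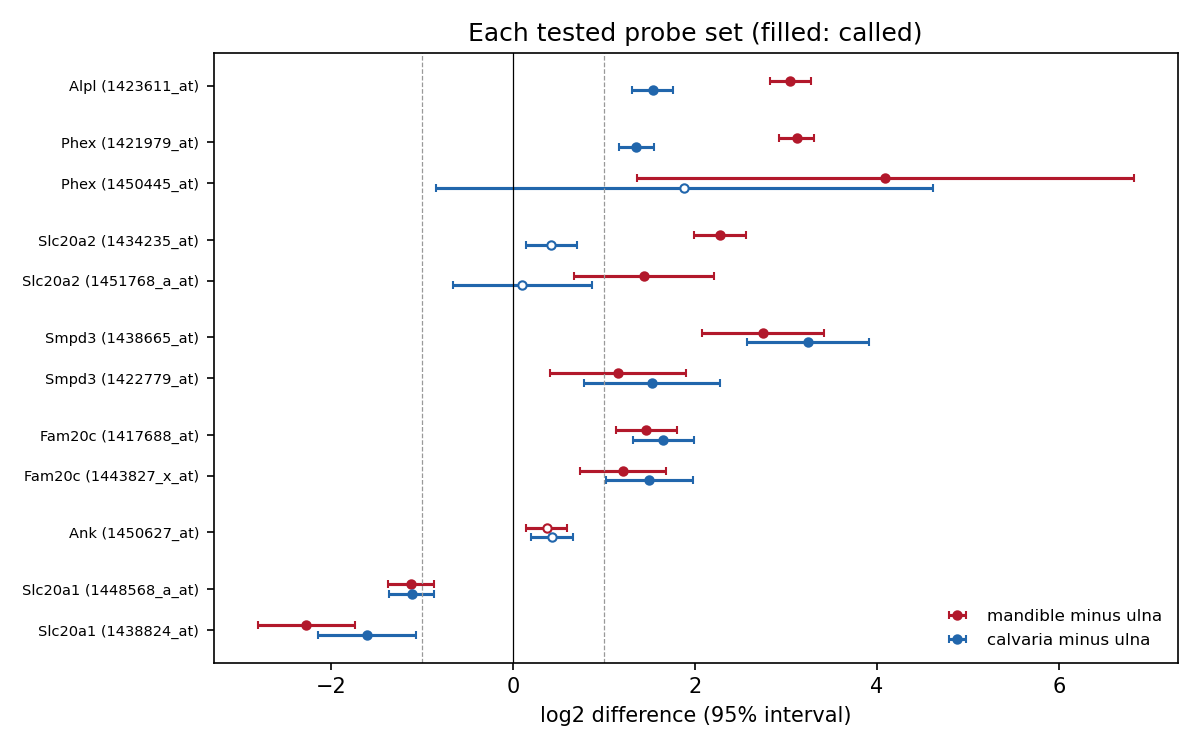
Log2 difference with its 95% interval for each of the 12 tested probe sets of the 7 members, for mandible minus ulna and calvaria minus ulna (n = 2 arrays a site), with filled points for called differences and dashed lines at a 2-fold change. Every probe set of a gene lies on the same side of 0 in both comparisons, while the size differs, as for Smpd3 at 9.50-fold and 2.90-fold in calvaria.

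Fgf23 and Phospho1 gave no usable level. The signal of Fgf23 was 17.9 and 22.1 in mandible, 6.55 and 3.82 in calvaria and 22.8 and 11.3 in ulna, below the array median on every array. Calvaria was lowest on both arrays, and mandible and ulna overlapped. With no filter on signal the differences of calvaria from ulna (-1.75, limma adjusted p = 0.215) and of mandible from calvaria (1.95, adjusted p = 0.192) did not pass. The probe set shared by Phospho1 and Zfp652 had a signal of 8.67 and 24.7 in mandible, 6.86 and 27.2 in calvaria and 3.94 and 13.5 in ulna, below the array median throughout, and the sites overlapped. A change of either gene was not detectable at this signal.

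Other genes of the same pathways were followed in 5 lists of 48 genes, of which 36 were tested. Between calvaria and ulna 13 were higher and 1 lower (median log2 difference 0.37), between mandible and ulna 16 were higher and 1 lower (median 0.88), and between mandible and calvaria 5 were higher and 1 lower (median 0.13). The corresponding shares of all genes were those given above, 8.44% and 4.59%, 11.0% and 11.0%, and 5.15% and 4.02%. Both counts of higher genes against ulna include Stc1 and Stc2, which passed the filter only through skull arrays. Both counts of genes higher in mandible include Slc34a2, which passed through mandible alone. The calls of Stc1 and Stc2 against ulna and those of Slc34a2 were built into the selection.

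The higher genes lay mainly in the lists of matrix proteins and of the FGF23 and vitamin D axis. Of 6 matrix proteins tested, 4 were higher and none lower in calvaria than in ulna, and the same counts held for mandible against ulna. Omd, the keratan sulphate proteoglycan osteomodulin, had a log2 difference of 3.04 for calvaria minus ulna (limma adjusted p = 7.33e-09) and 2.93 for mandible minus ulna (adjusted p = 1.42e-08). Sparc, the collagen and calcium binding protein osteonectin, had 2.78 (adjusted p = 1.57e-10) and 2.60 (adjusted p = 5.84e-10). Ibsp, bone sialoprotein, was higher at both sites by 1.48 and 1.71, and Mgp, the mineralization inhibitor matrix Gla protein, was called in calvaria alone (1.64 in calvaria against ulna and 0.93 in mandible against ulna). Fam20a, a pseudokinase that partners Fam20c in enamel formation, was called in mandible against ulna (1.76, adjusted p = 0.000118) and against calvaria (1.52, adjusted p = 0.000783), while its difference between calvaria and ulna did not pass (0.24, adjusted p = 0.485).

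In the FGF23 and vitamin D axis 6 of 10 genes tested were higher and none lower at each skull site against ulna. Vdr, the vitamin D receptor, had a log2 difference of 2.16 for calvaria minus ulna (limma adjusted p = 6.55e-07) and 1.33 for mandible minus ulna, and Pth1r, the parathyroid hormone receptor, had 2.11 (adjusted p = 2.50e-07) and 1.31. Fgfr1, a receptor for Fgf23, was higher by 1.25 in calvaria against ulna and by 2.07 in mandible against ulna. The stanniocalcin genes, which encode hormones of mineral balance first known from fish, were both called, Stc1 with 2.27 for calvaria minus ulna and 3.18 for mandible minus ulna, and Stc2 with 1.13 and 2.54. Both lay below the array median in ulna, with a signal of 16.7 and 2.61 for Stc1 and 18.4 and 16.9 for Stc2, and passed the filter only through skull arrays, so a difference from ulna was built into their selection and its size is not exact. Fgfr3 was called in mandible against ulna (2.16), while its difference of calvaria from ulna fell just short of 2-fold (1.00, adjusted p = 0.000428). Between mandible and calvaria, Stc2 (1.41, adjusted p = 0.00633) and Fgfr3 (1.16, adjusted p = 0.000221) were the 2 of 10 called.

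The remaining lists moved less. Of 6 pyrophosphate and nucleotide genes none was called between calvaria and ulna by limma, while the soluble pyrophosphatase genes Ppa1 and Ppa2 had log2 differences of 0.34 and -0.46, both past the adjusted p but under 2-fold. The ecto-nucleotidase Nt5e was called between mandible and ulna, at the 2-fold limit (1.00, adjusted p = 0.000754). Of 4 phosphate carriers, Slc37a2, an exchanger of sugar phosphate for phosphate, was higher in calvaria against ulna (1.37, adjusted p = 0.000272) and Slc34a2, the sodium phosphate cotransporter of epithelia, in mandible against ulna (1.65, adjusted p = 0.00225). Slc34a2 lay below the array median on all calvaria and ulna arrays, between 22.1 and 30.8, and passed the filter only through mandible. Its difference of mandible from the other sites was thus built into its selection, and the size is not exact. Of 10 genes of matrix vesicles and membrane lipids, 2 were higher and 1 lower in calvaria than in ulna, and 4 were higher and 1 lower in mandible than in ulna. Anxa5, a calcium-binding annexin of matrix vesicles, had a log2 difference of 1.08 for calvaria minus ulna and 1.78 for mandible minus ulna. Sgms2, which makes the sphingomyelin that Smpd3 cleaves, had 2.31 and 1.34, and Pcyt1a, of phosphatidylcholine synthesis, was lower at both sites, at -1.05 and -1.16.

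**Figure D4:**
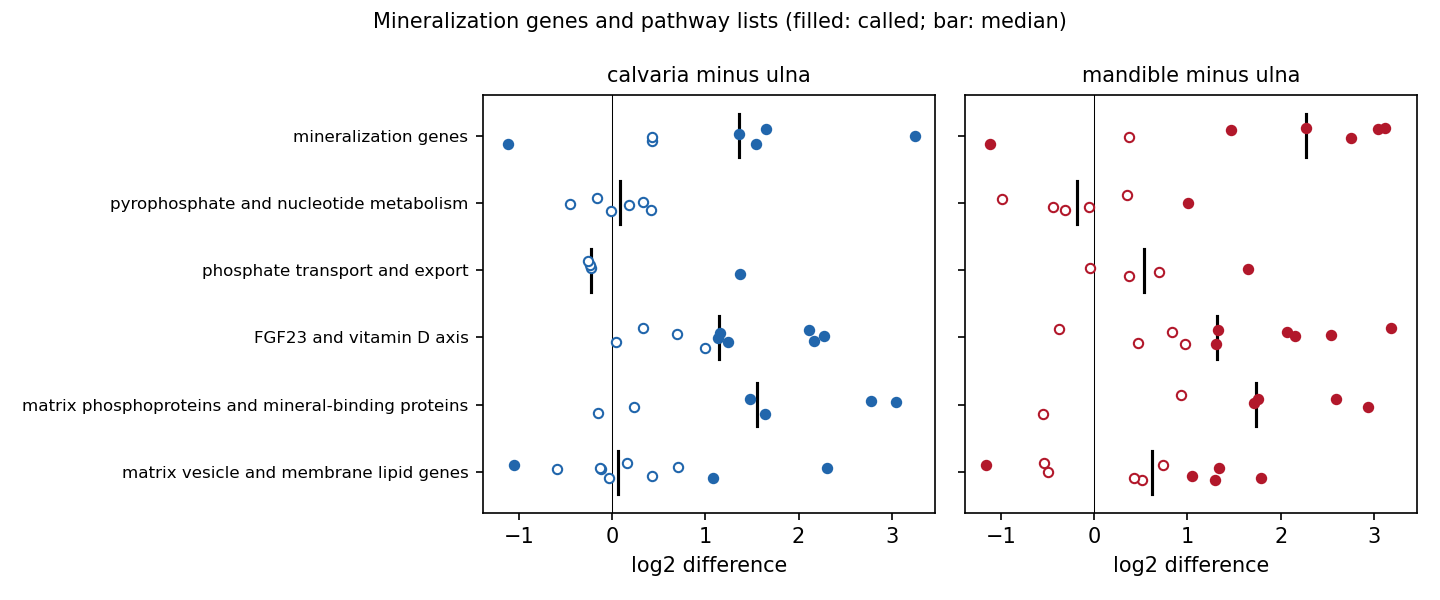
Log2 difference of each tested gene in the 5 pathway lists and of the 7 tested mineralization genes, for calvaria minus ulna and mandible minus ulna (n = 2 arrays a site), with filled points for called genes, open points for the others and a bar at each median. The medians of the mineralization genes lie at 1.36 and 2.28, and those of the pyrophosphate and nucleotide list at 0.09 and -0.19.

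Markers of the cells in the samples differed between the sites as well. All 8 osteoblast genes tested were higher at each skull site than in ulna, with a median log2 difference of 2.35 for calvaria and 2.02 for mandible. The summed osteoblast signal ranged from 46443 to 47859 in mandible, from 48457 to 53817 in calvaria and from 8752 to 8843 in ulna. Between calvaria and ulna the log2 difference was 1.54 for Alpl, 1.36 for Phex and 1.65 for Fam20c, each below that median, and 3.25 for Smpd3, above it. Between mandible and calvaria the osteoblast median was -0.08, with 1 of 8 lower and none higher, while Alpl, Phex and Slc20a2 were higher by 1.51 to 1.85. Of 7 osteocyte genes, 4 were called higher in calvaria against ulna and 2 in mandible against ulna, and none was called between mandible and calvaria. Ibsp and Sparc stand in both the osteoblast and the matrix list. Osteoclast genes summed to between 6221 and 6465 in mandible, 11660 and 11967 in calvaria and 2743 and 3262 in ulna, with 5 of 8 called higher in calvaria and 3 of 8 in mandible, each against ulna. Dcstamp, called at both, passed the filter only through skull arrays, so its difference from ulna was built into its selection. The part of osteoblast, osteocyte and osteoclast content in the members' differences was not tested.

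Tooth genes, like Alpl, Phex and Slc20a2, were highest in the mandible samples, which included the teeth. The summed signal of 8 tooth genes ranged from 64417 to 65607 in mandible, from 56.3 to 76.8 in calvaria and from 77.1 to 90.8 in ulna. Every tooth gene lay below the array median on the calvaria and ulna arrays and passed the filter through mandible alone, so that all 8 were called in mandible was built into the selection, and the median log2 difference from calvaria (9.90) is not an exact size. Dspp, the dentine phosphoprotein gene, was at 8582 and 8383 in mandible, 0.828 and 1.77 in calvaria and 2.85 and 1.80 in ulna. Markers of epithelium had a summed signal of 4515 to 4647 in mandible, 125 to 145 in calvaria and 196 to 245 in ulna, with 6 of 7 higher in mandible than in calvaria. Cartilage genes summed to between 1241 and 1386 in mandible, 439 and 476 in calvaria and 321 and 396 in ulna, and 2 of 6 were called higher in mandible than in calvaria. Of the genes called, Krt14, Krt15, Trp63 and the cartilage gene Col10a1 passed the filter through mandible alone. These calls were built into the selection as well. The part of tooth, epithelium and cartilage in the 3 members' differences was not tested. The log2 differences between calvaria and ulna, 1.54 for Alpl and 1.36 for Phex, do not measure that part in mandible.

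Summed markers of fat, erythroid cells, neutrophils and skeletal muscle were, like Slc20a1, highest in ulna, while those of B cells and macrophages were not. The summed signal of 4 adipocyte genes ranged from 1816 to 1851 in mandible, from 2307 to 2325 in calvaria and from 5691 to 5948 in ulna, and all 3 that were tested were called lower at each skull site than in ulna. That of 8 erythroid genes ranged from 3686 to 4072 in mandible, from 6466 to 6965 in calvaria and from 10693 to 11184 in ulna, with 2 of 7 called lower in calvaria than in ulna, 7 of 7 in mandible than in ulna and 3 of 7 in mandible than in calvaria. Between calvaria and ulna, where the log2 difference of Slc20a1 was -1.11, none of 8 neutrophil genes (median -0.26), 6 B cell genes (median 0.00) and 7 macrophage genes (median 0.08) was called by limma. Between mandible and ulna 4 of the neutrophil genes, 2 of the B cell genes and 1 of the macrophage genes were called lower. Skeletal muscle genes summed to between 52499 and 53725 in mandible, 6989 and 7139 in calvaria and 59169 and 59626 in ulna, although soft tissue had been taken off the ulna. The part of fat, marrow and muscle in the level of Slc20a1 was not tested.

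Calvaria and mandible, where Smpd3 was higher than in ulna, both also exceeded ulna in the summed signal of meninges and of neural markers. Meninges genes summed to between 1597 and 1615 in mandible, 3962 and 4396 in calvaria and 690.4 and 690.6 in ulna, with 4 of 7 called higher in calvaria than in ulna and 2 of 7 in mandible than in ulna. Crabp2, called in both, passed the filter through mandible alone, so its difference of mandible from ulna was built into its selection. Ptgds, prostaglandin D synthase of the leptomeninges, was at 42.8 and 48.6 in mandible, 1916 and 1406 in calvaria and 41.2 and 29.5 in ulna. The meninges genes not called between calvaria and ulna were Aldh1a2 (log2 difference -0.02), Slc6a13 (-0.21) and Foxc1 (0.57). Markers of neurons and glia, cells that also use Smpd3, summed to between 1130 and 1175 in mandible, 1429 and 1446 in calvaria and 347 and 381 in ulna. Of these 5 of 6 were called higher in calvaria than in ulna, and 3 of 6 were higher and 1 lower in mandible than in ulna. Snap25 and Nefl passed the filter through calvaria alone, and Tubb3 and Stmn2 only through skull arrays. Where these genes were called higher than in ulna, the difference was built into their selection. Mbp, the myelin basic protein gene, was at 905 and 965 in mandible, 676 and 712 in calvaria and 233 and 237 in ulna, while the neuronal gene Snap25 was at 0.457 and 0.899 in mandible, 415 and 362 in calvaria and 23.4 and 12.1 in ulna. Dspp, Ptgds, Mbp and Snap25 were picked from their lists after their values had been seen. Between mandible and calvaria, 1 gene of each of the meninges and neural lists was called higher in mandible and 3 lower. The higher ones were Crabp2, at 287 and 283 in mandible and 16.2 and 27.0 in calvaria, and Stmn2, at 116 and 113 and at 32.3 and 52.0. Snap25 and Nefl were among the lower ones. The calls of Crabp2, Snap25 and Nefl between mandible and calvaria were built into their selection as well. The part of meninges and neural tissue in the members' differences was not tested.

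**Figure D5:**
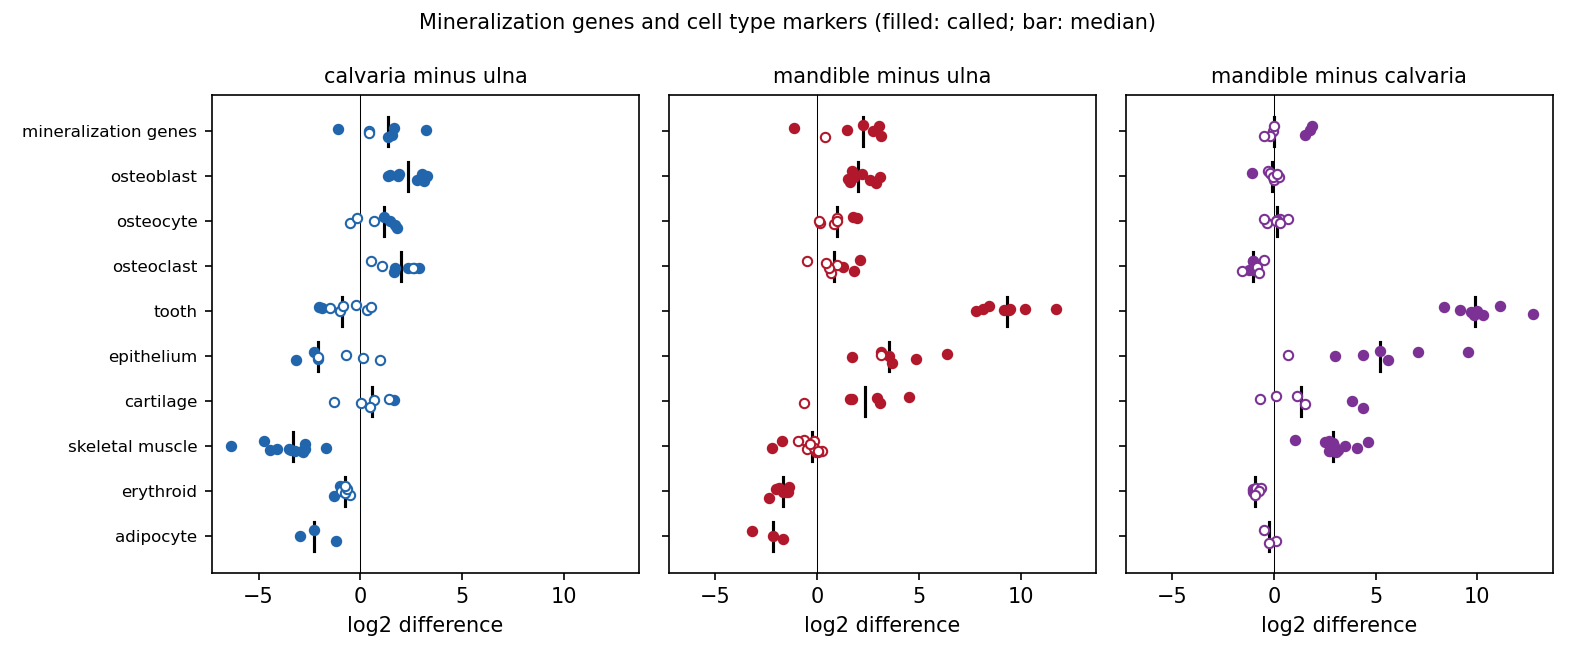
Log2 difference of each tested gene in 9 marker lists and of the 7 tested mineralization genes in the 3 comparisons (n = 2 arrays a site), with filled points for called genes, open points for the others and a bar at each median. Between mandible and calvaria the tooth median lies at 9.90 and the osteoblast median at -0.08, with 3 mineralization genes between 1.51 and 1.85.

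The other members also had genes of like profile among the 12326 tested. Smpd3 lay closest to Mmp16, a membrane-bound matrix metalloproteinase (root mean square distance 0.16), Omd (0.22) and Cpxm1 (0.24), and only 4 genes lay within 0.25 of it. Slc20a2 lay closest to Npl (0.14), Csn3 (0.20) and Pawr (0.20), with 16 genes within 0.25. Fam20c lay closest to the ephrin receptor gene Epha4 (0.09), the integrin gene Itgb5 (0.10) and Kirrel (0.11), with 145 genes within 0.25. The profile of Slc20a1 was more common, with 358 genes within 0.25 and Rnf115 (0.05), Ddias (0.06) and Rnf123 (0.06) nearest, and that of Ank more so, with 2404 genes within 0.25, Ccdc50 (0.03), Rogdi (0.04) and Cbfb (0.05) being nearest. Among the members, Slc20a2 was next to Phex (0.44) and Alpl (0.48), and the farthest pair was Smpd3 and Slc20a1 (1.96).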

How the data were processed

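Gene expression in mandible, calvaria and ulna was measured on the Affymetrix mouse array after 1-cycle labelling. The authors computed the values with MAS5 and deposited 45101 of them per array, each a signal intensity (linear, with a 2% trimmed mean of 100). Probe sets were named from the platform annotation (34945 with 1 gene, 932 with several, 9160 with none), and gene IDs were matched to a mouse gene table of GRCm38.p6. The 64 controls were dropped. Scaling was to the array median, after the per chip step that the methods name, and log2 was taken with no pseudocount.

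The signal filter kept 25233 probe sets. limma 3.58.1 (R 4.3.3) fitted 1 mean per site, using eBayes with an intensity trend, on 3 residual and 7.67 prior degrees of freedom. P-values were adjusted by Benjamini and Hochberg over all tested probe sets, and each gene was represented by its brightest tested probe set. Arrays of 1 site had a median SD of 0.14 (log2). All members were to be named, with up to 4 called genes of the largest change per pathway list and comparison, or, where none was called, the 2 brightest. The members and lists were chosen with earlier results of these data known. Start-site windows and gene names came from RefSeq tables. Alternatives covered scaling, filters, an offset, the variance model, the arrays in the fit, a replicate block, each array left out, the call rule and the choice of probe set. The number of arrays limits the precision. Python 3.11.15 and matplotlib 3.10.9 made the plots.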

Additional observations from a re-analysis of the deposited data

How the results depend on the processing

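The members called numbered 5 for calvaria against ulna, 6 for mandible against ulna and 3 for mandible against calvaria. These counts stayed at 5, 6 and 3, with the same members, when any 1 array was left out. With the replicate number as a block the counts were again 5, 6 and 3. The sources do not say whether the numbers pair the samples, and the deviations of same-numbered arrays correlated between -0.0123 and 0.00585 across sites. With only the 4 arrays of a comparison and no moderation of the variances, 0, 2 and 0 members were called, while 6, 6 and 3 of 7 had an unadjusted p under 0.05. With the same 4 arrays and moderation the counts were 5, 6 and 3. The 4-array fit without moderation called 0.709%, 3.56% and 0.00% of all tested probe sets in those 3 comparisons. With all 6 arrays and no moderation the counts stayed at 5, 6 and 3, beside 6.21%, 13.7% and 2.87% of all tested probe sets. The cause of the lower counts in the 4-array fit was not tested. With the filter at the 75th percentile Smpd3 was not tested. With the probe set of the largest change, Phex was not called between calvaria and ulna (1.89, adjusted p = 0.287) or between mandible and calvaria (2.21, adjusted p = 0.242), where its dimmer probe set then stood for it. The median of all tested probe sets between mandible and ulna was -0.13 on the scaled values and -0.02 on the values as deposited. Between mandible and calvaria, 2 differences that had not passed changed sign. That of Slc20a1 (-0.01) was 0.031 without scaling, 0.0409 after quantile normalization and 0.0385 when arrays were scaled to their 75th percentile, and it ranged from -0.1103 to 0.0908 when 1 array was left out. That of Ank (-0.06) ranged from -0.1719 to 0.0582 when 1 array was left out.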
